A study of Bos taurus with 6 samples.

Results

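The aminoacyl-tRNA biosynthesis genes encode the enzymes that load amino acids onto transfer RNAs. They were taken as the genes whose KEGG annotation in the authors' table names that pathway map, and they numbered 44 of the 17663 genes of the table. Of these, 38 encode aminoacyl-tRNA synthetases and 6 encode enzymes that modify a tRNA already carrying its amino acid. By the compartment in which the enzymes are known to work, 19 synthetase genes were taken as cytosolic, 17 as mitochondrial and 2 (GARS and KARS) as serving both. Older gene symbols are used as the table gives them.

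Bovine fetal fibroblasts (bEFs) were compared between 2 genotypes, with 3 libraries in each. FT cells held the fat-1 transgene, a desaturase gene of Caenorhabditis elegans whose enzyme turns n-6 into n-3 polyunsaturated fatty acids. WT cells were from wild-type Luxi cattle. All were primary cultures from fetuses aged 50–60 days, made from the tissue that remained without head, limbs, internal organs or bones. The study's methods give the fetuses the same names as the libraries, so each library was taken to come from a separate fetus. The promoter that drives the transgene is not given in the sources used here. FT and WT cells came from different fetuses, so the genotype and any other difference between the FT and WT fetuses cannot be told apart.

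Most synthetases recognise a single amino acid and its tRNAs, and which amino acid a tRNA is given fixes the meaning of the codons that it pairs with on the ribosome. Mitochondria translate the few respiratory chain subunits of their own genome with a separate set of synthetases, which nuclear genes encode and the organelle imports. Synthetases fall into class I and class II by the fold of their catalytic core, and several of the cytosolic enzymes are held together in a multi-synthetase complex. Fibroblasts secrete collagen and other matrix proteins and so depend on this supply of charged tRNA.

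The total count per library ranged from 48167642 (FT_2) to 69777641 (WT_1). The 44 genes together took 358371 counts in FT_1, 223738 in FT_2, 258621 in FT_3, 460569, 331996 and 363198 in WT_1, WT_2 and WT_3. The fibroblast markers were present in all libraries. All 9 listed genes were measured, and their summed FPKM (fragments scaled to gene length and library total) was 6776, 16989 and 16716 in FT_1, FT_2 and FT_3, against 17743, 17210 and 17289 in WT_1, WT_2 and WT_3. The most abundant of them in WT cells, the intermediate filament gene VIM, had an FPKM of 7312 to 8178 there and of 1244, 3850 and 4171 in FT_1, FT_2 and FT_3. In FT_1 and FT_2 the matrix gene DCN was above it, at 1803 and 4092. With edgeR, VIM was not called at an adjusted p under 0.05, and of the 9 only PDGFRA was, higher at a log2 fold change of 1.06. DESeq2 also called VIM lower (adjusted p = 0.0125) and DCN higher (adjusted p = 0.0488). VIM was lower with limma as well (adjusted p = 0.0462). With edgeR and without FT_1, COL1A1, DCN, LUM, PDGFRA and PDGFRB were called higher and VIM lower.

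FT_1 stood apart from the other FT libraries. The biological coefficient of variation, a measure of how far expression varies between libraries over and above counting noise, was 56.9% between FT_1 and FT_2 and 57.6% between FT_1 and FT_3, but 8.23% between FT_2 and FT_3 and 9.99% to 13.4% between WT libraries. FT_1 also held markers of other cell types. The 5 epithelial markers had a summed FPKM of 138, 8.47 and 9.20 in FT_1, FT_2 and FT_3, and of 10.1, 7.83 and 13.9 in WT_1, WT_2 and WT_3. The most abundant of them in FT_1, the keratin gene KRT8, was at 84.1 there and at 0.95 and 0.61 in FT_2 and FT_3, where CDH1 led at 7.11 and 8.41. CDH1 was at 7.83 to 13.9 in WT libraries, and KRT8, KRT18 and EPCAM had no count in any WT library. The mesothelial markers (3 of 4 in the table) summed to 199.7 in FT_1, 45.0 in FT_2, 46.3 in FT_3 and 2.32 to 3.48 in WT libraries, nearly all of it from MSLN, while the gene WT1 had no count in FT cells. Leaving out FT_1 removed the difference in the epithelial sum but not that in MSLN. Without FT_1, MSLN was called higher in FT cells at a log2 fold change of 4.21 (edgeR adjusted p = 5.34e-08). KRT8 and KRT18, at under 1 FPKM, were then also called higher (edgeR adjusted p = 3.67e-05 and 0.00109). Without any WT count, the size of their fold change is not defined. Their part in the results was not tested, and the results are given with and without FT_1.

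Markers of other cells were low in level. The summed FPKM stayed at or under 1.15 for the 4 endothelial markers (highest gene PECAM1), 7.93 for the blood markers (3 of 4 in the table, highest CD14), 5.77 for the skeletal muscle markers (2 of 4, highest DES), 3.74 for the neural marker TUBB3 (1 of 4) and 2.29 for the 3 cartilage markers (highest SOX9). Some of them differed between the genotypes. DES was at 5.74, 4.01 and 3.17 in FT_1, FT_2 and FT_3 and at 0.07, 0 and 0 in WT_1, WT_2 and WT_3. It was called higher at a log2 fold change of 7.44 (edgeR adjusted p = 0.00488; 7.12 without FT_1). With counts of 12, 0 and 0 in WT_1, WT_2 and WT_3, the size of this change is poorly defined, and limma on log2(FPKM + 1) gave 2.35. The other muscle marker, MYF5, went the opposite way, at 0.03, 0.59 and 0.61 in FT libraries and 1.06 to 1.93 in WT libraries. With edgeR its log2 fold change of -1.64 was not called, and without FT_1 it was -1.09 and called lower. MYF5 was also called lower with limma (adjusted p = 0.0376). CD68, TUBB3 and ACAN were called lower with edgeR. The 6 proliferation genes summed to 54.2, 86.1 and 86.1 in FT_1, FT_2 and FT_3, against 240.7, 288.7 and 233 in WT_1, WT_2 and WT_3. With edgeR, 5 of them were called lower in FT cells (adjusted p under 0.05), MCM2 being the exception at -0.62. MCM2 was called lower with limma (adjusted p = 0.0413), and with edgeR when FT_1 was left out (-0.37, adjusted p = 0.00759). CCNB1, the most abundant in WT cells and the one with the largest fall (-2.65), was at 8.20, 13.8 and 12.1 in the FT libraries and at 74.0, 91.7 and 73.7 in the WT libraries. The part of these genes in the results that follow was not tested.

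Levels between the members spanned a wide range. By mean FPKM in WT cells the highest were GARS (278 ± 9.6, SD, n = 3), SARS (268 ± 15.6), TARS (252 ± 7.42), AARS (185 ± 12.7) and WARS (164 ± 15.2). GARS and SARS did not differ beyond their spread in this order. The lowest with regular counts were EARS2 (1.45 ± 0.157), PARS2 (1.61 ± 0.20) and MARS2 (1.66 ± 0.537), which overlapped in their spread. TARSL2, a second cytosolic threonine enzyme, had 0 counts in each FT library and 4, 0 and 13 in WT_1, WT_2 and WT_3, so it did not pass the filter on low counts and 43 members were tested with edgeR. The median FPKM of a cytosolic synthetase gene was 51.4 in WT cells and 41.5 in FT cells, and that of a mitochondrial synthetase gene was 6.08 and 4.67.

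More members were called lower than higher in FT cells. A gene was called at an adjusted p under 0.05, from edgeR's quasi-likelihood test on the counts with Benjamini-Hochberg adjustment over all 13482 genes tested. Of the 43 tested members, 19 were called lower in FT cells (44.2%), where 18.9% of all genes tested were. Another 4 were called higher (9.30%), where 20.1% of all genes tested were. The median log2 fold change was -0.30 over the members and 0.03 over all genes. FPKM values of all 3 FT libraries lay below all 3 WT libraries in 25 members, against 36.9% of all genes, and above them in 4 members, against 21.8% of all genes. In bulk samples, fewer cells of a type and less RNA per cell cannot be told apart.

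The scale of these values needs care. FPKM is set on library totals, and on totals alone the median log2 fold change of all genes was -0.12, whereas the TMM scaling (trimmed mean of M-values) used in the test put it at 0.03. A fitted change is therefore about that much higher than the ratio of the FPKM values beside it. With totals alone, 21 members were called lower and 3 higher, and 37.6% of all called genes were higher in place of 51.6%. Without FT_1, 23 members were called lower, where 31.5% of all genes were, and 4 higher, where 30.6% of all genes were. These included all 19 and all 4 of the members called with FT_1.

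**Figure D1:**
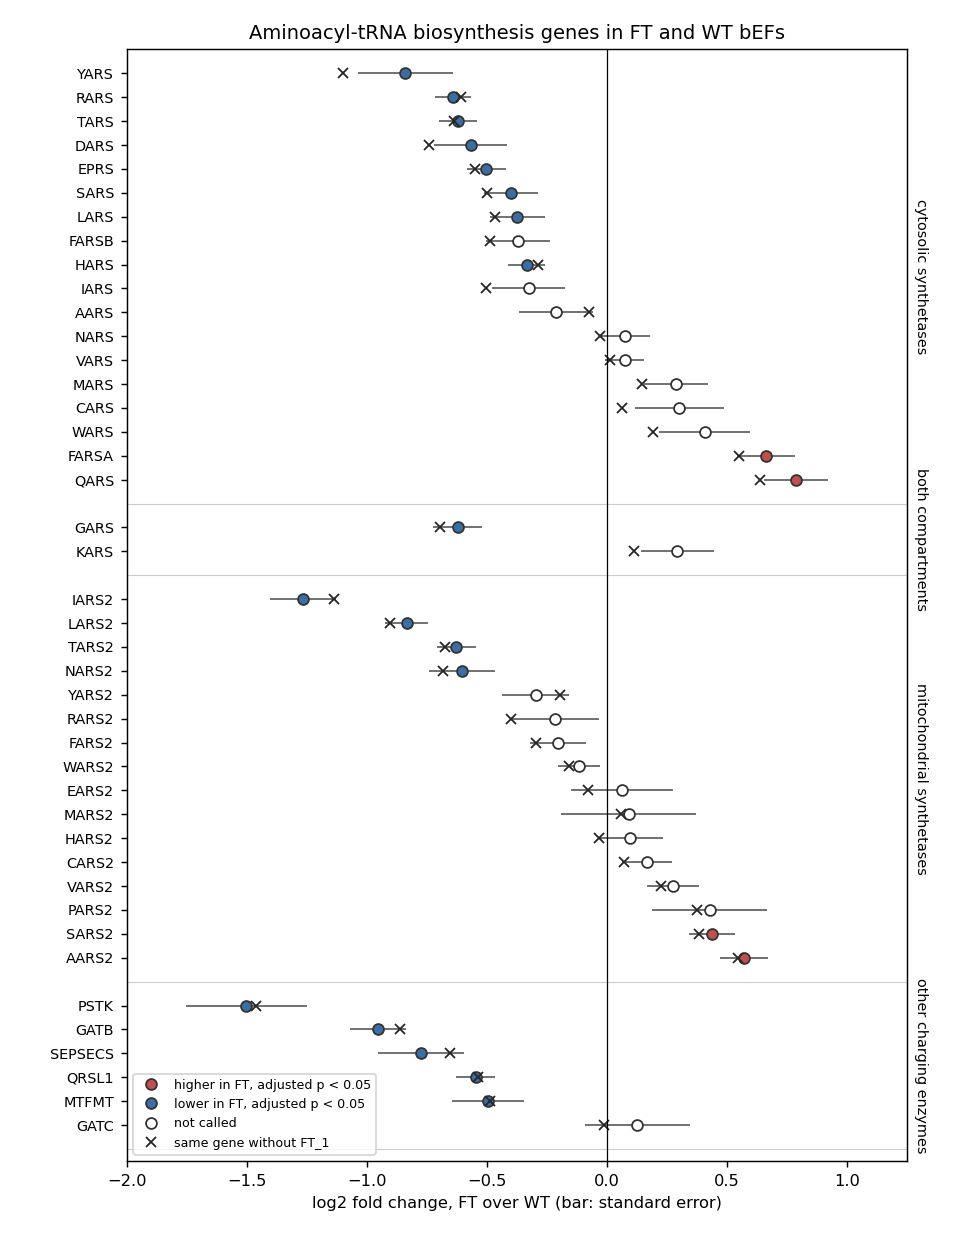
Log2 fold change of FT over WT cells for 42 of the 43 tested members, grouped by compartment, with the standard error as bars; filled points passed an adjusted p under 0.05 and crosses give the same gene without FT_1. Members called lower run from -1.50 (PSTK) to -0.33 (HARS), and those called higher from 0.44 (SARS2) to 0.79 (QARS).

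By the rule of the study's methods (unadjusted p under 0.05, log2 fold change below -1 or above 1), 3 members were lower, PSTK and IARS2 among them, where 8.96% of all genes were. The other direction held 0 members by that rule, where 10.2% of all genes were. edgeR gave 5 members higher in FT cells at an unadjusted p under 0.05 without the fold limit, where 25.7% of all genes were. DESeq2 called 4 at an adjusted p under 0.05, where 18.4% of all 17663 genes were. Unlike the edgeR shares, this one was taken without the filter on low counts. It also counts genes to which DESeq2 gave no adjusted p as not called. Of the 19 members called lower, 11 were called with each of the 6 libraries left out in turn, and of the 4 called higher, 3 were. The number of members called lower ran from 11 (without WT_1) through 12 (without FT_2 or WT_2) to 23 (without FT_1), while the share of all genes called lower ran from 11.1% (without WT_1) to 31.5% (without FT_1).

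Among the 18 tested cytosolic synthetases, 8 were called lower (44.4%) and 2 higher (11.1%) in FT cells, against 18.9% and 20.1% of all genes tested, and the median log2 fold change was -0.33. With each library left out in turn, the number called lower ran from 3 (without WT_1 or without WT_2, where 11.1% and 11.3% of all genes were called lower) to 10 (without FT_1, where 31.5% were). YARS, which charges tyrosine, had the largest fall. Its FPKM was 45.4, 28.0 and 27.6 in FT_1, FT_2 and FT_3, against 66.4, 66.1 and 68.8 in WT_1, WT_2 and WT_3. FT_1 lay between the other FT libraries and the WT libraries, and the groups did not overlap. The log2 fold change was -0.84 (standard error 0.20, edgeR adjusted p = 0.0193), and without FT_1 it was -1.10 (adjusted p = 6.14e-07). Leaving out FT_2, FT_3 or any WT library while keeping FT_1 ended the call, with an adjusted p of up to 0.0663.

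RARS (arginine) and TARS (threonine) fell by nearly the same amount in each FT library. RARS had an FPKM of 22.9, 24.0 and 24.1 in FT_1, FT_2 and FT_3 and of 40.6, 43.2 and 39.7 in WT_1, WT_2 and WT_3. TARS was at 153, 143 and 145 in the FT libraries and at 253, 245 and 259 in the WT libraries. Neither gene's groups overlapped, and FT_1 was no exception among the FT libraries. The log2 fold change was -0.64 for RARS (standard error 0.07, edgeR adjusted p = 0.00209) and -0.62 for TARS (standard error 0.08, adjusted p = 0.00256), and without FT_1 they were -0.61 and -0.64.

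EPRS encodes an enzyme with separate activities for glutamate and for proline. Its FPKM was 75.4, 67.3 and 66.1 in FT_1, FT_2 and FT_3 and 110.0, 110.1 and 109.6 in WT_1, WT_2 and WT_3. The WT libraries differed little from each other, and every FT library was below them. The fitted log2 fold change was -0.50 (standard error 0.08, edgeR adjusted p = 0.00548), and -0.55 without FT_1.

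The other 4 cytosolic genes called lower were DARS (aspartate), SARS (serine), LARS (leucine) and HARS (histidine). Their log2 fold changes were -0.57, -0.40, -0.37 and -0.33, with edgeR adjusted p values of 0.0298, 0.0356, 0.0448 and 0.0180. The groups did not overlap in any of them. The calls of DARS, SARS and LARS held without FT_1 but ended without FT_2, FT_3, WT_1, WT_2 or WT_3, where the largest adjusted p was 0.103 for DARS, 0.116 for SARS and 0.147 for LARS. The call of HARS ended without WT_1 or WT_2, with an adjusted p of up to 0.0763.

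QARS, which charges glutamine, was called higher. Its FPKM was 101, 73.0 and 74.4 in FT_1, FT_2 and FT_3, against 53.9, 51.8 and 54.2 in WT_1, WT_2 and WT_3. FT_1 was the highest library, and the groups were apart. This was a log2 fold change of 0.79 (standard error 0.13, edgeR adjusted p = 0.00619), or 1.73-fold, and it was 0.64 without FT_1 (adjusted p = 1.45e-05).

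The cytosolic phenylalanine enzyme is built from an alpha subunit, encoded by FARSA, and a beta subunit, encoded by FARSB, and the genes had opposite signs. FARSA was at an FPKM of 25.0, 19.1 and 20.0 in FT_1, FT_2 and FT_3 and of 13.9, 15.8 and 15.3 in WT_1, WT_2 and WT_3. FARSB was at 41.9, 31.1 and 34.0 in the FT libraries and at 49.5, 57.3 and 47.4 in the WT libraries. Neither gene's groups overlapped, with FARSA higher and FARSB lower in FT cells. FARSA had a log2 fold change of 0.66 (standard error 0.12, edgeR adjusted p = 0.00802), and 0.55 without FT_1. FARSB missed the threshold at -0.37 (standard error 0.13, adjusted p = 0.0704), and without FT_1 it was called at -0.49 (adjusted p = 0.00124).

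The other 7 tested cytosolic synthetases were not called, with log2 fold changes from -0.33 (IARS) to 0.41 (WARS). IARS, which charges isoleucine, had an FPKM of 68.6, 46.0 and 50.4 in FT_1, FT_2 and FT_3 and of 76.0, 74.4 and 80.0 in WT_1, WT_2 and WT_3. It passed the threshold without FT_1, with a log2 fold change of -0.50 (edgeR adjusted p = 1.84e-04). WARS, the tryptophan enzyme, was at 252.7 in FT_1 but at 155 in FT_2 and 178 in FT_3, and its WT libraries lay at 168, 147 and 177. For AARS (alanine), FT_1 was instead the lowest library, at 117, against 153 and 159 in FT_2 and FT_3 and 172 to 197 in WT libraries. The FT and WT ranges of NARS, VARS, MARS, CARS and WARS overlapped.

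GARS and KARS each encode both the cytosolic and the mitochondrial form of their enzyme, for glycine and for lysine, so a count of the gene cannot be divided between compartments here. GARS had an FPKM of 181, 146 and 159 in FT_1, FT_2 and FT_3, against 282, 267 and 284 in WT_1, WT_2 and WT_3. Every FT library was below every WT library. Its log2 fold change was -0.62 (standard error 0.10, edgeR adjusted p = 0.00586), and -0.70 without FT_1. GARS had the highest mean FPKM of the members in WT cells. By mean FPKM in FT cells it ranked behind WARS (195 ± 51.1, SD) and SARS (183 ± 24.2). With GARS at 162 ± 17.9 there, these 3 genes did not differ beyond their spread.

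KARS was at an FPKM of 155, 110.2 and 106 in FT_1, FT_2 and FT_3, and at 109, 117 and 110.0 in WT_1, WT_2 and WT_3. FT_1 alone lay above the WT libraries, and the groups overlapped. The log2 fold change of 0.29 was not called (standard error 0.15, edgeR adjusted p = 0.176), nor was 0.11 without FT_1.

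**Figure D2:**
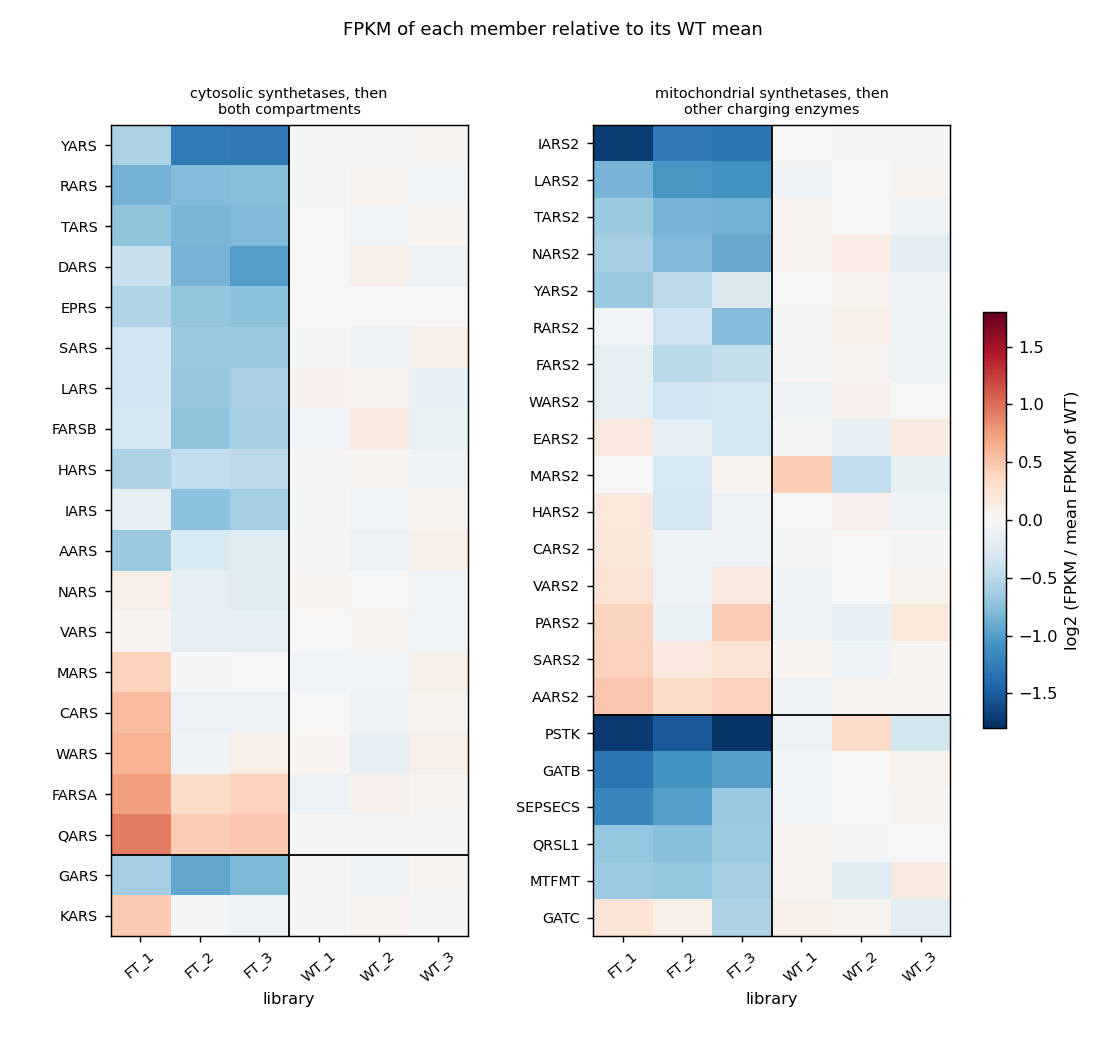
Log2 ratio of FPKM to the gene's mean in WT cells, by library (columns) and gene (rows), for 42 tested members; blue is below and red above the WT mean. FT_2 and FT_3 look alike, whereas FT_1 is redder in many cytosolic genes, such as WARS (252.7 in FT_1 against 155 and 178).

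Among the 17 mitochondrial synthetases, 5 were called lower (29.4%) and 2 higher (11.8%) in FT cells, against the same 18.9% and 20.1% of all genes, and the median log2 fold change was -0.12. With each library left out in turn, that median ran from -0.16 to -0.05, 4 to 7 were called lower, and without WT_1 or WT_2 only 1 was called higher. On library totals alone the median was -0.27, where that of all genes was -0.12. The difference between the counts of the compartments, or between them and all genes, was not tested.

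IARS2, the mitochondrial isoleucine enzyme, was by far the most abundant of the mitochondrial set. It had an FPKM of 32.3, 43.1 and 42.3 in FT_1, FT_2 and FT_3, against 106, 107 and 103 in WT_1, WT_2 and WT_3. FT_1 was the lowest library here. In most synthetase genes it was instead above both other FT libraries (15 of 18 tested cytosolic and 13 of 17 mitochondrial genes). Its log2 fold change was -1.27 (standard error 0.14, edgeR adjusted p = 0.00169), or 2.41-fold lower, and it was -1.14 without FT_1 (adjusted p = 3.61e-07).

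LARS2 (leucine), TARS2 (threonine) and NARS2 (asparagine) were also called lower. LARS2 had an FPKM of 8.97, 7.77 and 7.52 in FT_1, FT_2 and FT_3 and of 15.4, 16.2 and 16.6 in WT_1, WT_2 and WT_3. The log2 fold changes were -0.83 for LARS2, -0.63 for TARS2 and -0.60 for NARS2, with edgeR adjusted p values of 0.00163, 0.00283 and 0.0173. None of the groups overlapped, and without FT_1 the changes were -0.90, -0.68 and -0.68. The call of NARS2 ended without FT_2, FT_3, WT_1 or WT_2, with an adjusted p of up to 0.0718.

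The mitochondrial genes called higher were AARS2 (alanine) and SARS2 (serine). AARS2 had an FPKM of 4.14, 3.72 and 3.95 in FT_1, FT_2 and FT_3 and of 2.78, 3.02 and 3.07 in WT_1, WT_2 and WT_3. SARS2 was at 11.7, 9.97 and 10.5 in the FT libraries and at 9.06, 8.33 and 9.02 in the WT libraries. In both genes every FT library was above every WT library, and FT_1 was the highest. In the fit the log2 fold change was 0.57 for AARS2 (standard error 0.10, edgeR adjusted p = 0.00700) and 0.44 for SARS2 (standard error 0.10, adjusted p = 0.0148), and without FT_1 they were 0.55 and 0.38. The call of SARS2 was lost on library totals alone (adjusted p = 0.0647) and without WT_1 or WT_2 (up to 0.0619).

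The other 10 mitochondrial synthetases were not called, with log2 fold changes from -0.30 (YARS2) to 0.43 (PARS2). PARS2, the proline enzyme, had an FPKM of 2.13, 1.48 and 2.21 in FT_1, FT_2 and FT_3 and of 1.54, 1.46 and 1.84 in WT_1, WT_2 and WT_3, and the groups overlapped. FARS2, the phenylalanine enzyme, was at 2.36, 1.88 and 1.97 in the FT libraries and at 2.70, 2.76 and 2.51 in the WT libraries. FARS2 did not overlap between groups, and it was called only without FT_1 (log2 fold change -0.30, edgeR adjusted p = 0.0288). RARS2 (arginine) also passed the threshold when FT_1 was left out, at -0.40 (adjusted p = 0.0187).

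Summed over genes, the mitochondrial set was at an FPKM of 122, 118 and 119 in FT_1, FT_2 and FT_3 and at 207, 211 and 204 in WT_1, WT_2 and WT_3. IARS2 made up much of this. Without it, the sums of the remaining 16 genes were 89.6, 74.5 and 77.2 in FT cells and 101, 104 and 100.3 in WT cells. The cytosolic set summed to 1468, 1190 and 1224 in FT_1, FT_2 and FT_3 and to 1629, 1584 and 1668 in the WT libraries. The FT mean was 0.795 of the WT mean for the cytosolic set, 0.577 for the mitochondrial set and 0.789 for the mitochondrial set without IARS2. These ratios are on the FPKM scale, before the shift of all genes given above.

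**Figure D3:**
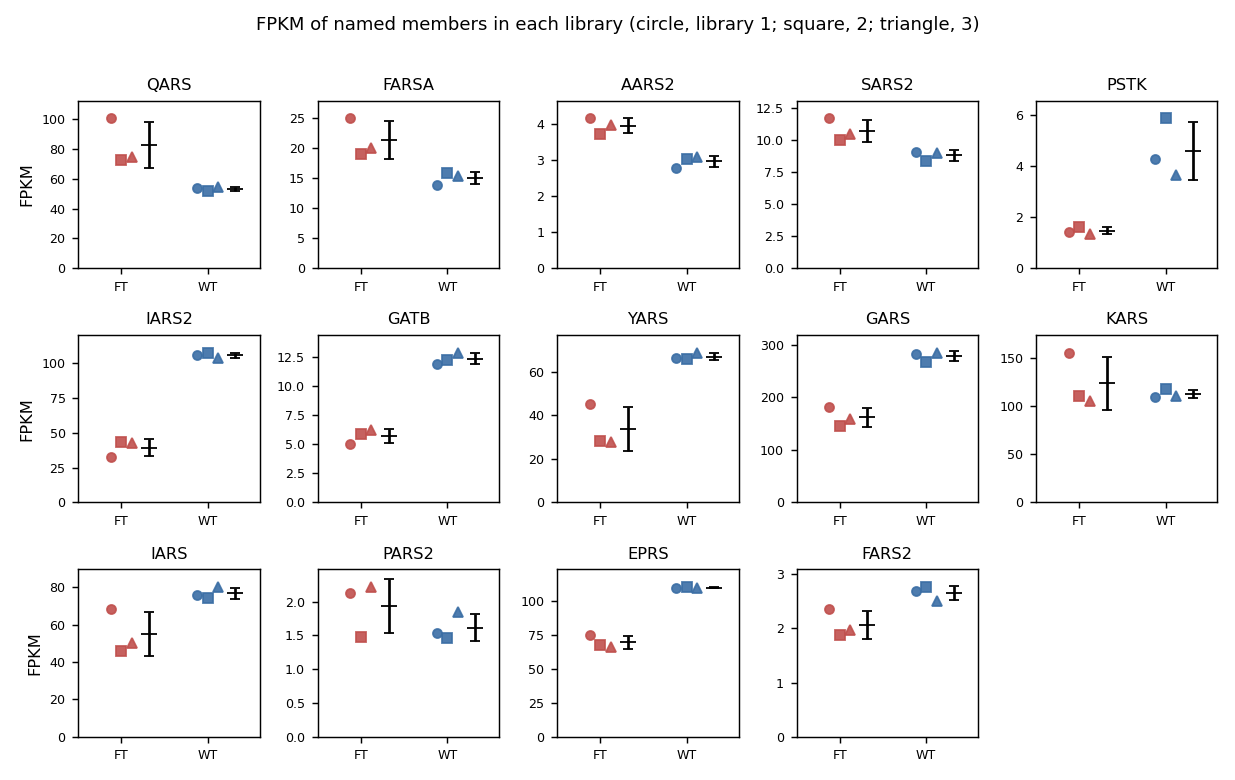
FPKM of 14 members in each library (red, FT; blue, WT; circle, square and triangle for libraries 1, 2 and 3), with mean and SD of 3 libraries beside the points. In IARS2 the FT libraries lie at 32.3 to 43.1 and the WT libraries at 103 to 107, whereas in KARS the groups overlap.

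Of the 6 enzymes that act on a tRNA already charged, 5 were called lower in FT cells (83.3%, against 18.9% of all genes tested), with a median log2 fold change of -0.66 (3 called lower without FT_2, WT_1 or WT_3). PSTK and SEPSECS act in sequence to turn serine on its tRNA into selenocysteine. PSTK had an FPKM of 1.40, 1.61 and 1.35 in FT_1, FT_2 and FT_3, against 4.29, 5.87 and 3.66 in WT_1, WT_2 and WT_3. Its groups did not overlap, although the WT libraries varied more than the FT libraries. The log2 fold change was -1.50 (standard error 0.25, edgeR adjusted p = 0.00618), the largest fall of any member, and -1.46 without FT_1. SEPSECS had a log2 fold change of -0.77 (adjusted p = 0.0183), and its call ended without FT_2 or any of the WT libraries, with an adjusted p of up to 0.0667.

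In mitochondria, glutamine reaches its tRNA by a detour. Glutamate is loaded first, and an amidotransferase made of the products of QRSL1, GATB and GATC then converts it. GATB had an FPKM of 5.03, 5.89 and 6.2 in FT_1, FT_2 and FT_3, against 12, 12.3 and 12.9 in WT_1, WT_2 and WT_3. Every FT library was at less than the lowest WT value, and its log2 fold change was -0.95 (standard error 0.12, edgeR adjusted p = 0.00230), or -0.86 without FT_1. QRSL1 was also called lower, at -0.55 (adjusted p = 0.00410). GATC was not called, at 0.13 (adjusted p = 0.670), with 14.6, 13.5 and 8.47 in the FT libraries and 13.4, 13.0 and 10.9 in the WT libraries. Thus 2 of the 3 subunits were called lower, while EARS2, which supplies the glutamate form, had a log2 fold change of 0.06 (adjusted p = 0.835).

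MTFMT adds the formyl group to the methionine that starts mitochondrial proteins. It was called lower with a log2 fold change of -0.49 (edgeR adjusted p = 0.0444). The call ended without FT_2, FT_3, WT_1 or WT_3, with an adjusted p of up to 0.144, and without FT_1 the change was -0.49.

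The balance of the compartments was then compared for each amino acid. The log2 ratio of the mitochondrial gene's FPKM to that of the cytosolic gene was taken within each library, which removes any scaling of the library. There were 18 such pairs, since EPRS stands against both EARS2 and PARS2, and FARS2 against both FARSA and FARSB. The pairs share genes and libraries and are not independent of each other. In WT cells the ratio was above 0 for the isoleucine pair only, so that in all other pairs the cytosolic gene had the higher FPKM. The difference between FT and WT means ran from -0.94 to 0.91, with a median of 0.08, so the pairs did not move to one side.

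With all libraries, the isoleucine pair had the largest difference below zero. The log2 ratio of IARS2 to IARS was -1.09, -0.09 and -0.25 in FT_1, FT_2 and FT_3, against 0.48, 0.53 and 0.37 in WT_1, WT_2 and WT_3. All WT libraries had more IARS2 than IARS by FPKM and all FT libraries less. FT_1 was the farthest from WT, and the difference was -0.94 with it and -0.63 without it, when the pairs of FARS2 and FARSA (-0.85) and of NARS2 and NARS (-0.65) lay further below zero. The exact two-sided permutation test of 3 libraries against 3 gave p = 0.10, the smallest it can give.

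With all libraries, the proline pair had the largest difference above zero. The log2 ratio of PARS2 to EPRS was -5.14, -5.51 and -4.90 in FT_1, FT_2 and FT_3 and -6.16, -6.24 and -5.90 in WT_1, WT_2 and WT_3. The difference was 0.91, and PARS2 itself was not called. Without FT_1 it was 0.89, level with the tyrosine (0.90) and serine (0.88) pairs. For phenylalanine, the ratio of FARS2 to FARSA was -3.40, -3.34 and -3.35 in FT libraries and -2.37, -2.52 and -2.61 in WT libraries, a difference of -0.86. Against the other subunit, FARSB, the difference of FARS2 was 0.17. The sign of the phenylalanine comparison thus depended on which cytosolic subunit it was set against. The proline pair and both phenylalanine pairs gave an exact permutation p of 0.10.

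Of the 18 pairs, the FT libraries were all below the WT libraries in 6, all above in 6 and overlapping in 6. Among single genes, 36.9% of all genes tested had FPKM values all below and 21.8% all above, and no such share was taken over other pairs of genes. The pairs below included those for isoleucine, phenylalanine (with FARSA), asparagine, tryptophan and leucine. The pairs above were those for proline, serine, alanine, glutamate, histidine and phenylalanine (with FARSB). The threonine pair hardly differed, at -0.01, with TARS and TARS2 both called lower. The tyrosine pair had a difference of 0.57, but the FT_1 ratio of -4.05 lay among the WT ratios of -4.06 to -3.87, while FT_2 and FT_3 were at -3.17 and -2.94.

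**Figure D4:**
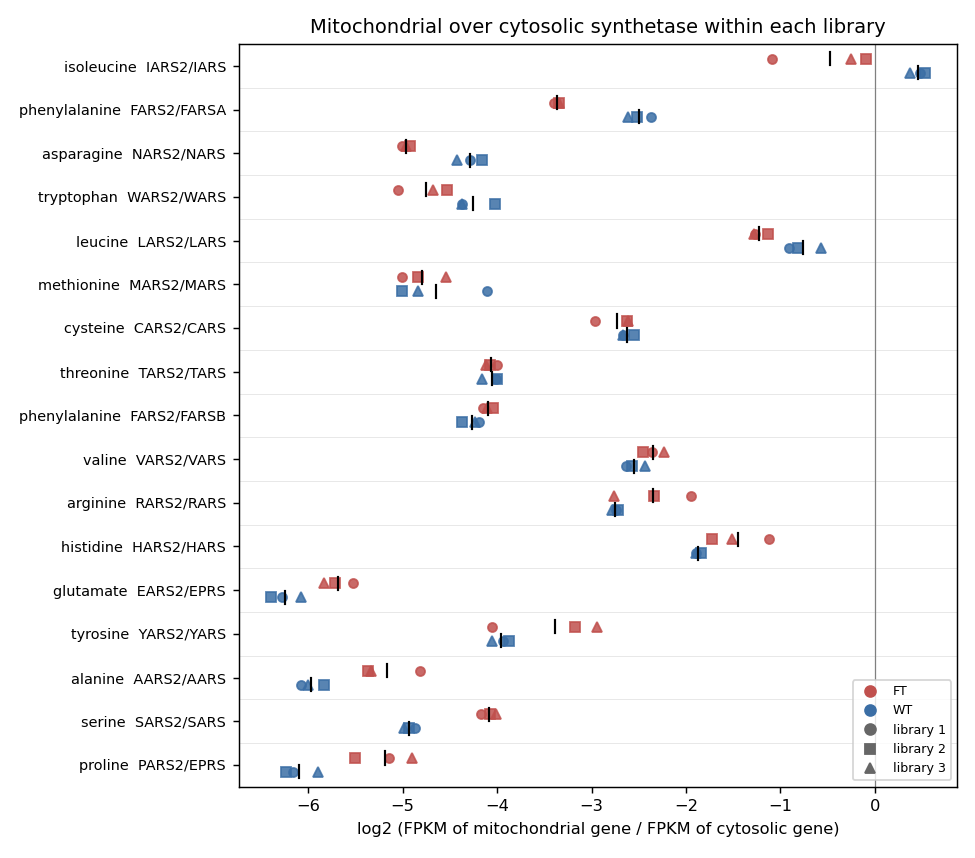
Log2 ratio of mitochondrial to cytosolic FPKM within each library for 17 of the 18 pairs (red, FT; blue, WT; black ticks, group means), sorted by the difference between FT and WT. The isoleucine pair differs by -0.94 at the top and the proline pair by 0.91 at the bottom.

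FT_1 had higher values than FT_2 and FT_3 in many members. Of the 18 tested cytosolic synthetases, FT_1 was above both other FT libraries in 15, and of the 17 mitochondrial ones in 13, against 47.1% of all genes tested. The median log2 ratio of FT_1 to the mean of FT_2 and FT_3 was 0.34 for the cytosolic set, 0.21 for the mitochondrial set and 0.03 for all genes. Of the 6 other charging enzymes, FT_1 was above both in 1. This difference within the FT group rests on a single library, which has no replicate, and no test was made of it.

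Of the 18 tested class I synthetases 5 were called lower and 1 higher, with a median log2 fold change of -0.03 (-0.12 without FT_1). Of the 18 tested class II synthetases 8 were called lower and 3 higher, with a median of -0.27 (-0.29 without FT_1). Of all genes tested, 18.9% were called lower and 20.1% higher. Without WT_1, where 11.1% of all genes were called lower, the calls of YARS and LARS ended in class I. In class II those of DARS, SARS, HARS and NARS2 ended, as did the rise of SARS2. On library totals alone the medians were -0.17 for class I and -0.43 for class II. EPRS has domains of both classes and was counted in neither. The 8 synthetases of the complex included 4 called lower (EPRS, RARS, DARS and LARS), 1 higher (QARS) and 3 not called (IARS, MARS and KARS), with a median of -0.35 (-0.48 without FT_1). The cytosolic genes outside it had 4 of 11 called lower and 1 higher, with a median of -0.21 (-0.07 without FT_1). Leaving out WT_1 ended the calls of DARS and LARS in the complex and of YARS, SARS and HARS outside it. These groups were not tested against each other. The genes of the 3 scaffold proteins of the complex were not called, with log2 fold changes of -0.09 for AIMP1, 0.25 for AIMP2 and -0.13 for EEF1E1, although EEF1E1 was called lower without FT_1 (-0.46, edgeR adjusted p = 7.40e-04).

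By position in the authors' table, for which the sources used here name no cattle build (the processing notes of these libraries name the mouse build mm8), the members lay on 21 chromosomes. HARS (ENSBTAG00000018847, chromosome 7, 51803863 to 51817052, minus strand) and HARS2 (ENSBTAG00000025212, 51817094 to 51824132, plus strand) are head to head, with 41 bases between them. HARS was called lower at -0.33, while HARS2 was not called at 0.10 (edgeR adjusted p = 0.591). EPRS (ENSBTAG00000006898, chromosome 16, 23472901 to 23537555, minus strand) and IARS2 (ENSBTAG00000012582, 23586935 to 23631281, plus strand) lie with 1 gene of the table between them, and both were called lower. Of the 44 members, 12 overlapped another gene of the table, 4 of them on the same strand. They were QRSL1, GATC, KARS, YARS, RARS, IARS, MARS, CARS, TARS2, YARS2, RARS2 and EARS2. YARS2 lies across parts of PKP2 and DNM1L, TARS2 overlaps ECM1, and MARS overlaps DDIT3. How reads in such overlaps were counted is not given in the sources used here, so the values of these 12 genes carry that uncertainty.

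Genes that work beside the synthetases were counted in the same fit. Their counts stand against 18.9% of all genes called lower and 20.1% called higher, or 31.5% and 30.6% without FT_1, and no test compared the lists with all genes or with each other. Of 13 mitochondrial translation factors, 7 were called lower, with a median log2 fold change of -0.41, and the other 6 were not called. TSFM, which recharges the mitochondrial elongation factor, had an FPKM of 11.5, 11.6 and 10.8 in FT_1, FT_2 and FT_3 and of 27.7, 30.1 and 28.4 in WT_1, WT_2 and WT_3. Its log2 fold change was -1.18 (standard error 0.08, edgeR adjusted p = 6.38e-04). For GFM1, the translocase of the mitochondrial ribosome, the change was -0.98 (standard error 0.07, adjusted p = 7.97e-04). FT_1 lay with the other FT libraries in both genes. Without FT_1, 10 of the 13 were called lower.

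Of 14 genes of mitochondrial tRNA maturation, 4 were called lower (28.6%) and 2 higher (14.3%), with a median of -0.26. TRNT1, which adds the CCA end that a synthetase needs, had a log2 fold change of -0.71 (edgeR adjusted p = 0.00285), and the modifying enzyme gene CDK5RAP1 had -0.51 (adjusted p = 0.0139). ELAC2, which cuts the trailing end of tRNA precursors, was higher at 0.47 (adjusted p = 0.0152), and PUS1, a pseudouridine synthase, at 0.32 (adjusted p = 0.0475). Both rises were lost on library totals alone, and leaving out single libraries also ended calls (ELAC2 without WT_1, WT_2 or WT_3, adjusted p up to 0.0615; PUS1 without FT_2, FT_3, WT_1 or WT_3, up to 0.165). The call of CDK5RAP1 ended without WT_2 or WT_3, with an adjusted p of up to 0.0552. Of 4 tRNA proofreading and export genes 2 were called lower, AARSD1 at -0.49 and DTD1 at -0.34 (adjusted p = 0.0182 and 0.0344). AARSD1 lost its call without FT_3, WT_1 or WT_2 (adjusted p up to 0.0658), and DTD1 kept its call only without FT_1 (up to 0.111 otherwise). Without FT_1 all 4 of these genes were called lower.

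Of 7 cytosolic elongation factor genes, 3 were called lower, with a median of -0.55. EIF5A had an FPKM of 124, 102 and 107 in FT_1, FT_2 and FT_3 and of 273, 292 and 236 in WT_1, WT_2 and WT_3. Its log2 fold change was -1.10 (standard error 0.12, edgeR adjusted p = 0.00168), and that of EEF1D was -0.62 (adjusted p = 0.0268). EEF1D kept its call without FT_1 but lost it without any other library, with an adjusted p of up to 0.0923. Of 13 amino acid transporters, 3 were called higher with edgeR (23.1%) and the other 10 not, with a median of 0.30 (-0.04 with limma on FPKM). On library totals alone and with limma, 2 were called higher. SLC1A4 was called lower on library totals alone (adjusted p = 0.0279), with DESeq2 (adjusted p = 0.0413) and with limma (adjusted p = 0.0223). SLC43A1, a carrier of large neutral amino acids, was at 19.9, 26.5 and 25.0 in the FT libraries and at 4.38, 4.71 and 4.97 in the WT libraries, a log2 fold change of 2.51 (adjusted p = 5.23e-04). The glycine carrier gene SLC6A9 was higher at 1.11 (adjusted p = 0.00300). Without FT_1, 4 transporters were called higher and 5 lower, with a median of -0.04.

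The transcription factor ATF4 is known to act on genes of amino acid synthesis and on several synthetase genes, so a list of 27 ATF4 target genes, ATF4 included, was set beside the members. Of these 10 were called lower and 4 higher, with a median log2 fold change of -0.54. On library totals alone 2 were called higher, where 15.2% of all genes were, and limma also gave 2. ATF3 had an FPKM of 7.09, 5.47 and 5.25 in FT_1, FT_2 and FT_3 and of 24.8, 25.8 and 24.0 in WT_1, WT_2 and WT_3, a log2 fold change of -1.91 (edgeR adjusted p = 6.38e-04). DDIT3 was lower at -1.32 (adjusted p = 7.99e-04), whereas CEBPB was higher at 0.92 (adjusted p = 0.0110) and GDF15 at 0.91 (adjusted p = 0.00748). CEBPB lost its call without WT_1 or WT_2 (adjusted p up to 0.0526). FT_1 stood apart in this list as well, above both other FT libraries in 22 of 27 genes, with a median log2 ratio of 0.71 to their mean. Without FT_1, 19 of the 27 were called lower and 6 higher, and the median was -0.89. The transporter genes SLC7A5, SLC3A2 and SLC7A11 and the export gene XPOT are also in this list. Each was called lower without FT_1, so the counts of these lists share genes. Activity of ATF4 was not measured.

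**Figure D5:**
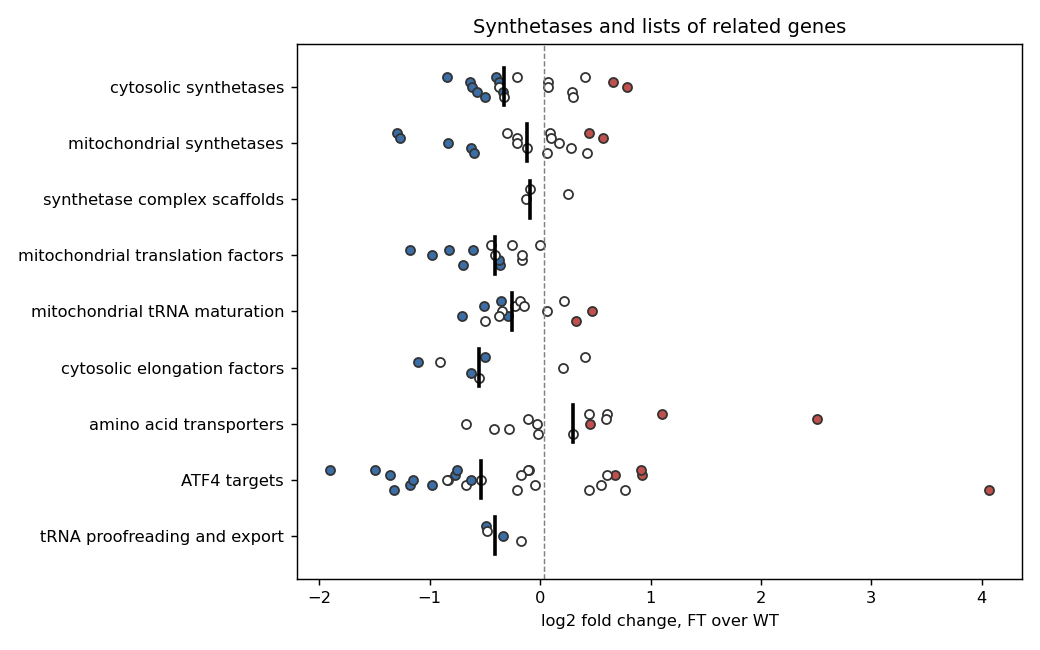
Log2 fold change of FT over WT cells for each tested gene of the synthetase sets and of 7 lists of related genes; blue and red points passed an adjusted p under 0.05, black bars are medians and the dashed line is the median of all genes (0.03). Medians lie at -0.41 for mitochondrial translation factors and at 0.30 for amino acid transporters.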

How the data were processed

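RNA was measured in bEFs of FT and WT fetuses, with 3 libraries in each group, each taken by its name as 1 fetus. The authors deposited a table with a raw count per gene and library, and in the same table the FPKM per gene and library, which the authors scaled by gene length and library total. The submitters' processing notes name HISAT2 2.0, StringTie 1.3.0, Bowtie 0.12.2 and the mouse build mm8. By the study's methods HISAT aligned reads to a genome from UCSC, and StringTie and edgeR gave the expression levels; the role of Bowtie, the cattle genome build, the annotation release and the use of strand are not given in the sources used here. Sequences were not used.

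Counts were tested with edgeR 4.0.16 in R 4.3.3 (TMM scaling, filterByExpr, quasi-likelihood test, no block), with Benjamini-Hochberg adjustment over the 13482 genes tested. The standard error is the log2 fold change divided by the square root of the F statistic. Ratios within libraries were compared by an exact permutation test in Python 3.11.15. DESeq2 1.42.0, limma 3.58.1 on log2(FPKM + 1) with a minimum mean FPKM of 0.5, other scalings, a replicate block and leaving out each library were alternatives. The fits were tested on simulated counts in which 200 genes were changed 2-fold, and edgeR recovered 198 with 5 false calls. The simulation gave every library the same spread, with none standing apart as FT_1 did. It therefore cannot show how the fits behave with such a library. Total counts per library were 48167642 to 69777641.

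Values in every library are given for the 5 largest rises and 5 largest falls among called members (4 rises were called; 1 fall is not reported here), for GARS and KARS, and for the 3 pairs with the largest difference of ratio. From each other list the 2 genes with the smallest p in each direction are named. RARS, TARS, LARS2, FARSB, WARS, AARS and GATC were given per library after their values were seen. The members and lists were chosen with earlier results of these data known. Of the lists, PTPRC, LRRN4, SOX10, ELAVL4, MYOD1, MYOG, HSD17B10, MTRFR and DTD2 were among those not analysed here.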

Additional observations from a re-analysis of the deposited data

How the results depend on the processing

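No called member changed sign under any alternative that was run (other scalings, DESeq2, limma on FPKM with a pseudocount of 1 or 0.1, no low-count filter, a replicate block, or a library left out). The uncalled members GATC, NARS, VARS, EARS2, MARS2 and HARS2 were slightly higher in edgeR and slightly lower on library totals and with limma. Median-ratio and upper-quartile scaling and DESeq2 kept all 23 calls of members, and no low-count filter lost 2 (MTFMT and LARS). On library totals alone the median log2 fold change was -0.45 over the members, -0.48 over cytosolic and -0.27 over mitochondrial synthetases, -0.81 over other charging enzymes and -0.44 over the genes of the other lists. limma gave -0.49, -0.24 and -0.43 for cytosolic, mitochondrial and other-list genes with a pseudocount of 1, and -0.50, -0.27 and -0.51 with 0.1, where the members stood at -0.45 and other charging enzymes at -0.81. Neither totals nor FPKM are rescaled between libraries, and the median of all genes was -0.12 both on totals and with limma (pseudocount 1). Under these 3 settings 1 mitochondrial synthetase was called higher and 4 genes of the other lists were. FARSB and YARS2 passed the threshold as lower on totals and with limma (pseudocount 1; adjusted p = 0.0300 and 0.0392 on totals), and IARS with limma but not on totals.

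By the study's rule 1378 genes were higher and 1208 lower. Its fold limit left 0 members higher and 3 lower, 0 cytosolic synthetases in either direction, 0 mitochondrial ones higher and 2 lower, 1 other charging enzyme lower, and 3 genes of the other lists higher and 8 lower. Without the fold limit edgeR gave 5 members higher at an unadjusted p under 0.05, and DESeq2 called 4.

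Leaving out each library in turn, 1516 to 4215 genes were called higher and 1531 to 4337 lower, with the highest numbers without FT_1. Members called lower ranged from 11 to 23, cytosolic synthetases from 3 to 10 and other charging enzymes from 3 to 5, and mitochondrial synthetases called higher from 1 to 2. Genes of the other lists ranged from 3 to 13 called higher and from 13 to 45 called lower. The pair differences ranged from -1.13 to -0.63 for IARS2 over IARS, 0.77 to 1.07 for PARS2 over EPRS and -0.92 to -0.80 for FARS2 over FARSA, and ratios of raw counts gave nearly the same means. The cause of single losses was not tested.

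The replicate numbers were not taken to pair the samples, since each library was taken as a different fetus and the correlations of deviations were -0.001, -0.02 and 0.018. With the replicate block 1838 genes were called higher and 1741 lower, 14 members lower and 4 higher, 4 cytosolic synthetases lower, and 4 genes of the other lists higher. Counting GARS and KARS as cytosolic gave 9 called lower. A search for promoter motifs was not run. TARSL2, which the edgeR filter on low counts left out, was not called by DESeq2 (adjusted p = 0.317).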

Other observations

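The genes given here were chosen after their values were seen. The 3 enzymes that make serine from a glycolytic intermediate differed between FT_1 and the other FT libraries. PHGDH, the first step, had an FPKM of 288, 86.7 and 82.5 in FT_1, FT_2 and FT_3, and of 190.0, 186 and 208 in WT_1, WT_2 and WT_3. PSAT1, the next, was at 99.9, 62.1 and 68.7 in the FT libraries and at 174, 159 and 176 in the WT libraries. PSPH, the last, was at 75.9, 31.4 and 30.2 against 149, 134 and 149. The log2 fold changes were -0.21 (not called), -0.98 and -1.50, with edgeR adjusted p values of 0.767, 0.00874 and 0.0228. Without FT_1 they were -1.03, -1.20 and -2.05, and each was then called. SHMT2, which turns serine into glycine in mitochondria, was at 255, 85.0 and 85.4 in the FT libraries and at 102, 99.5 and 108 in the WT libraries, and it was not called with or without FT_1.

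STC2, a secreted glycoprotein gene of the ATF4 list, was at 36.8 in FT_1 but at 1.96 and 2.65 in FT_2 and FT_3, with 0.86, 0.62 and 1.22 in the WT libraries. Its log2 fold change was 4.07 with FT_1 and 1.53 without it (edgeR adjusted p = 0.0475 and 0.00145). The call of STC2 with all libraries was lost on library totals alone (adjusted p = 0.0515) and with limma (adjusted p = 0.146). DESeq2 gave STC2 no adjusted p. DDIT4, another stress-responsive gene, was at 88.6, 12.1 and 15.7 in the FT libraries and at 72.2, 73.1 and 85.3 in the WT libraries, and its log2 fold change went from -0.84 (adjusted p = 0.413) to -2.29 (adjusted p = 4.67e-07) without FT_1. Why FT_1 stood apart was not tested.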
